A study of Homo sapiens with 2 samples.

Results

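The genes followed here are the cyclins, kinases and inhibitors that govern the G1 phase of the cell cycle. They are the D cyclins CCND1, CCND2 and CCND3, the kinases CDK4 and CDK6, the INK4 inhibitors CDKN2A and CDKN2C, the Cip/Kip inhibitors CDKN1A and CDKN1B, and the retinoblastoma gene RB1. They were taken by symbol from the expression table of 19607 genes, and each of the 10 was found once. RNA sequencing had been done on CWR22rv1 cells, an established human prostate cancer line. The comparison was between 1 library of Akt1/2 DKO cells, in which CRISPR/Cas9 had been directed at both AKT1 and AKT2, and 1 library of control cells whose genotype is given as wild type. The Akt1/2 DKO cells were isolated as monoclonal cells, and the labels do not say which clone was sequenced. A change tied to the clone and a change tied to loss of Akt1/2 therefore cannot be told apart, and with 1 library per condition no spread between replicates can be given.

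In G1, growth signals raise the D cyclins, which bind CDK4 or CDK6. The active kinases phosphorylate RB1, which then releases E2F transcription factors and allows entry into S phase. INK4 proteins block CDK4 and CDK6 by binding the kinase itself, while Cip/Kip proteins bind cyclin-kinase complexes and restrain CDK2 most strongly. Akt is known to act on this circuit through the proteins: it phosphorylates p21 and p27, it holds GSK3β in check, which otherwise marks cyclin D1 for destruction, and it keeps FOXO factors, known activators of CDKN1B, out of the nucleus. The comparison asked how the RNA of these genes differed once both Akt genes had been targeted.

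The deposited reads per gene are estimates. They summed to 9970820 in control and 10718650 in Akt1/2 DKO, so 3 reads, the floor used here, correspond to 0.301 and 0.280 CPM, the reads of a gene scaled to library size. AKT1 had 2645 reads in control and 591 in Akt1/2 DKO, and AKT2 had 2362 and 667, so both targeted genes were lower in the library labelled as knockout. The marker genes of luminal prostate cells FOXA1, KRT8 and KRT18 had at least 2433 reads in both libraries. Of 6 luminal markers, 5 lay past 1.5-fold, against 30.9% of the 13318 genes with at least 10 reads in both libraries together. KRT8 and KRT18 were higher in Akt1/2 DKO, while HOXB13 (log2 fold change -1.60), KLK2 (-1.83) and KLK3 (-2.81) were lower, and the sum of the 6 was 1453 CPM in control and 2059 in Akt1/2 DKO. KRT5 and TP63, defining markers of basal cells, had 0 reads in both, and KRT14 had 2 and 0. The 5 fibroblast markers summed to 105 CPM in control and 18.8 in Akt1/2 DKO, without a shared direction. VIM had 897 and 84 reads and COL3A1 74 and 9, while COL1A1 was higher in Akt1/2 DKO, with 55 and 106. COL1A2 had 1 and 3 reads and SPARC 2 and 3. The 3 endothelial markers had at most 2 reads in a library. Of the 3 blood markers, CD68 had 50 and 69 reads and CD3E had 0 in both. The part of such differences in the results that follow was not tested.

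The clearest difference among the G1 genes lay in CDK6, which was nearly silent in control cells and present in Akt1/2 DKO cells. CCND1, CDKN1B and RB1 were each about 1.5-fold higher in Akt1/2 DKO, CDKN1A was lower by a similar factor, and CDK4, CCND3, CDKN2A and CDKN2C lay within 1.5-fold. Of the 9 genes with at least 10 reads in both libraries together, 5 lay past a limit of 1.5-fold in either direction. In Akt1/2 DKO 4 of them were higher and 1 was lower. Across all 13318 genes with that many reads the share was 30.9%, and among the 10956 genes with at least 100 reads, as each of the 9 had, it was 23.2%. By direction the shares over all 13318 genes were 15.9% higher and 15.0% lower. Only CDK6 differed by more than 2-fold, where the share over all genes was 17.9%. In its direction 1332 of the 13318 genes lay past 2-fold, and 7.94% did so in the other. The median log2 fold change of the 9 genes was 0.35, against 0.01 over all genes tested. CCND2 was left out of these counts, with 0 reads in control and 1 in Akt1/2 DKO.

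**Figure D1:**
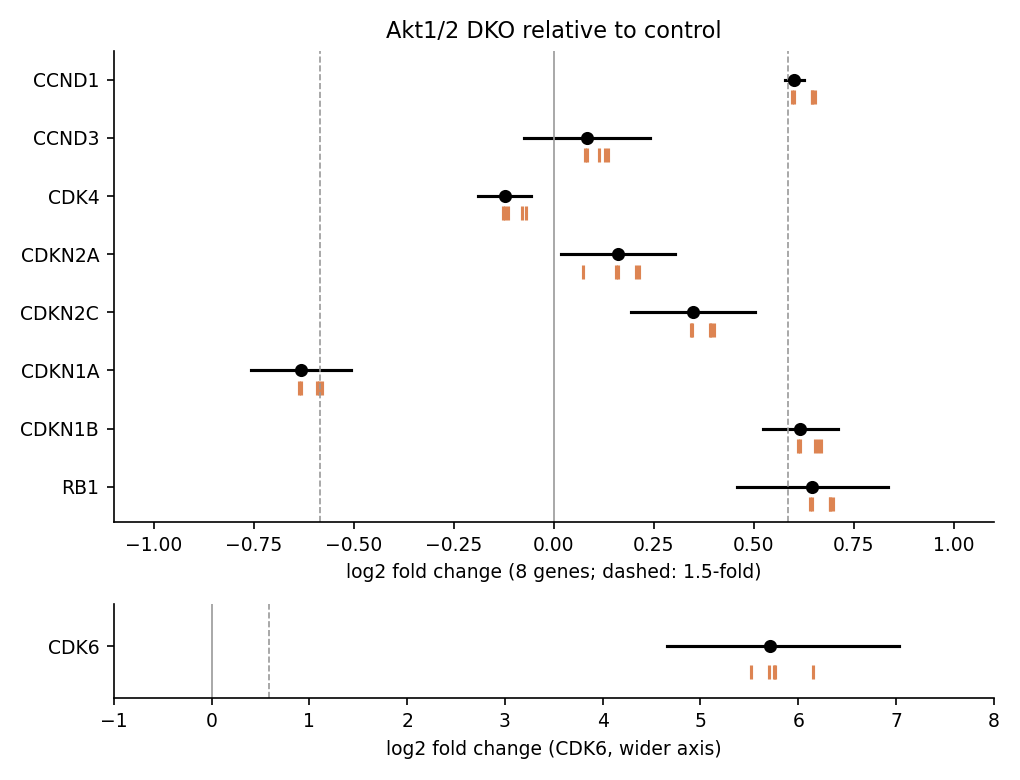
Log2 fold change of Akt1/2 DKO relative to control for 8 genes, and for CDK6 on a wider axis. Black points are reads scaled by TMM with the 95% interval for counting error, orange ticks the values under 5 other scalings or units, and dashed lines mark 1.5-fold. The intervals of CCND1, CDKN1A, CDKN1B and RB1 cross the dashed line, and that of CDK6 lies wholly beyond it.

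CDK6 (ENSG00000105810) encodes one of the kinases that D cyclins activate. It lies on the minus strand of chromosome 7 from 92604921 to 92836594 (GRCh38, GENCODE release 29). The gene had 7 reads in control and 406 in Akt1/2 DKO. Scaled to library size this was 0.713 and 37.3 CPM, 52.3-fold higher in Akt1/2 DKO (95% interval 25.2 to 131, exact and for counting error alone), a log2 fold change of 5.71. Few genes moved so far, since 29 of 13318 genes were higher in Akt1/2 DKO by as much or more, CDK6 included. For this count a library under 3 reads was set to 3. The fold of a gene with fewer control reads is thus a lower bound, and the count a minimum. The FPKM, a level that allows for both transcript length and sequencing depth, was 0.08 in control and 5.70 in Akt1/2 DKO, and the control value rests on those 7 reads.

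Because the results turn on CDK6, the sequence before each of its start sites in RefSeq (GRCh38.p14) is shown, from 250 to 51 bases before the start, read 5′ to 3′ on the minus strand. Capitals mark GGGCGG or its reverse complement CCGCCC, the letters bound by SP factors. The first window, chr7:92836624-92836823, belongs to the start at 92836573, and the second, chr7:92834010-92834209, to the start at 92833959.
CDK6 outer start: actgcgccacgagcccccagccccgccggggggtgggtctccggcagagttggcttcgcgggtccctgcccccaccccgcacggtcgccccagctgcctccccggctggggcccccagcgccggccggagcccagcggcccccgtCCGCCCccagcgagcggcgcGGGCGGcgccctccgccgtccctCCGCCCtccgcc
CDK6 inner start: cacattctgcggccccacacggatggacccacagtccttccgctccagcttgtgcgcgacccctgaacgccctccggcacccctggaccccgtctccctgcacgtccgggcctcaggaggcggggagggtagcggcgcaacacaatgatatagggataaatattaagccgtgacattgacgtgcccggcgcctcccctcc
The outer window is 83.5% G and C, more than 98.9% of the 35116 promoter windows of that length, and holds 27 CG dinucleotides against a median of 8. It has 3 matches to GGGCGG, letters found in 35.0% of all windows on either strand, and the inner window has none. The inner window is 65.0% G and C, with 17 CG dinucleotides, above the median of 57.5%. Neither holds GTAAACA, a FOXO core sequence found in 2.35% of windows on either strand, and this says only that these letters are not in these windows. Of the 10 genes, all but CCND1 and CCND2 had windows in the table, 14 in all, and GTAAACA occurred in 0 of the 14. The window of RB1 lies before a start inside the gene, at 48476450, and not before its first exon. Reads per gene do not tell which start was used.

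The genes nearest to CDK6 on each side did not share its difference. The nearest expressed gene on one side, FAM133B, whose start lies 246 kb from that of CDK6, had 300 and 353 reads, a log2 fold change of 0.09. On the other side VPS50, 396 kb away, had 306 and 345 reads, a log2 fold change of 0.02. Over the 20 nearest genes with at least 50 reads in both libraries together, 10 on each side, the median log2 fold change was 0.10, and over the 565 such genes of chromosome 7 it was 0.09. Of these 20, 6 lay past 1.5-fold, 4 higher and 2 lower, against 3019 of 11754 genes with at least 50 reads. Farther out, 2.76 Mb from CDK6, PDK4 was at 4.65, and PON1, 2.49 Mb away, was at -4.68, values picked after they were seen.

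CDK4, the partner kinase with the same substrates, showed no such difference. It had 3718 reads in control and 3785 in Akt1/2 DKO, 1.09-fold lower after scaling (95% interval 1.04 to 1.14). Its FPKM was 274 and 253. Measured per length, CDK4 remained the prevailing G1 kinase in Akt1/2 DKO cells, where its FPKM was 44.4 times that of CDK6. CDK6 made up 0.0292% of the summed FPKM of both kinases in control and 2.20% in Akt1/2 DKO. By reads, without scaling for transcript length, the shares were 0.188% and 9.69%. Within a library, the ratio of CDK6 to CDK4 needs no scaling of library sizes, and it was 57.0 times higher in Akt1/2 DKO (95% exact interval 27.3 to 143). CDK4 (ENSG00000135446) lies on chromosome 12 from 57747727 to 57756013 and overlaps TSPAN31 and MARCH9 on the opposite strand. These had 237 and 201 reads, and 408 and 518, and since strand use is not given in the sources used here, reads in the overlap cannot be told apart.

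Among the D cyclins, CCND1 carried nearly all of the signal. CCND1 (ENSG00000110092, chromosome 11 from 69641087 to 69654474), which encodes cyclin D1, had 23366 reads in control and 39293 in Akt1/2 DKO. This was 1.52-fold higher (95% interval 1.49 to 1.54), with FPKM of 542 and 847. It ranked 137 among the 19607 genes by FPKM in control and 79 in Akt1/2 DKO. So many reads make the counting error small, but the fold sits at the 1.5-fold limit, and without replicates the interval does not cover variation between cultures or clones. The estimates for CCND1 and CDK4 were not whole numbers, unlike those of the other 8 genes.

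CCND3, another D cyclin, had 615 and 722 reads, a log2 fold change of 0.08 whose interval, -0.07 to 0.24, included no change. Its FPKM was 32.0 in control and 34.7 in Akt1/2 DKO. CCND2, the third D cyclin, had 0 and 1 reads, both under the floor, so no fold is given. CCND1 thus made up 94.4% of the summed FPKM of the D cyclins in control and 96.1% in Akt1/2 DKO. Per CDK4 read, CCND1 was 1.65 times higher in Akt1/2 DKO (95% exact interval 1.57 to 1.73), a ratio taken within each library.

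**Figure D2:**
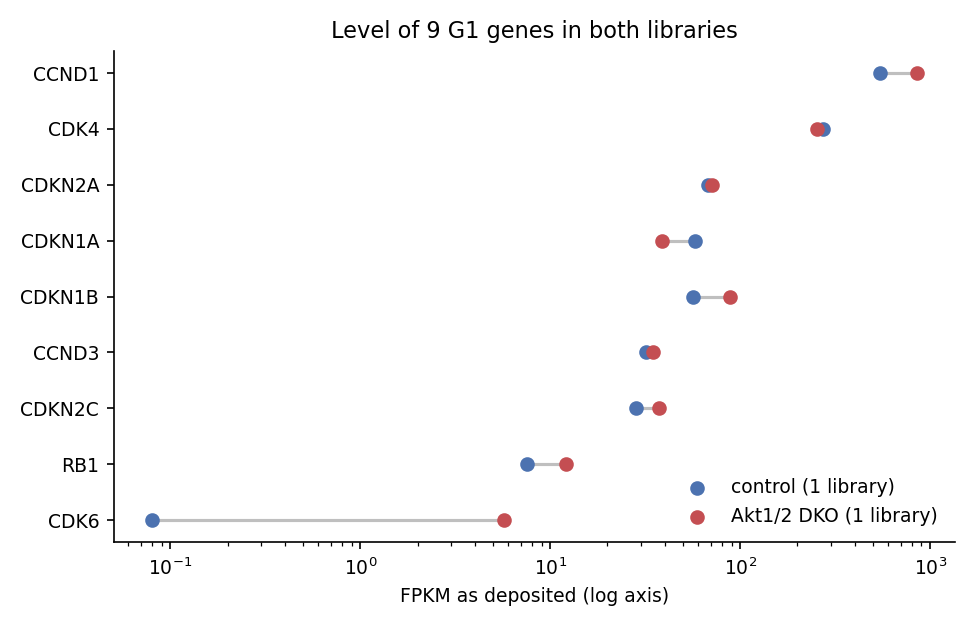
FPKM of 9 genes in the control (blue) and Akt1/2 DKO (red) library on a log axis, ordered by the control level. CCND2, with 0 and 1 reads, is not drawn. CCND1 and CDK4 are highest in both libraries, and CDK6 is lowest in both despite the long line between its points.

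Ordered by FPKM in control, CCND1 and CDK4 were followed by CDKN2A at 67.6, CDKN1A at 58.1, CDKN1B at 56.2, CCND3 at 32.0, CDKN2C at 28.4, RB1 at 7.53 and CDK6 at 0.08. In Akt1/2 DKO, CDKN1B at 88.4 stood above CDKN2A at 71.2, CDKN1A at 38.6, CDKN2C at 37.3, CCND3 at 34.7, RB1 at 12.2 and CDK6 at 5.70. Whether close neighbours in these orders, such as CDKN1A and CDKN1B in control, differ beyond variation between cultures cannot be judged from 1 library each.

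CDKN1A and CDKN1B differed from control in opposite directions. CDKN1A (ENSG00000124762, chromosome 6 from 36676460 to 36687339) encodes p21, an inhibitor induced by DNA damage. It had 1273 reads in control and 911 in Akt1/2 DKO, 1.55-fold lower (95% interval 1.42 to 1.69). CDKN1B (ENSG00000111276, chromosome 12 from 12715058 to 12722371) encodes p27. It had 1492 and 2536 reads, 1.53-fold higher (95% interval 1.44 to 1.64). Their FPKM were nearly equal in control, with CDKN1B at 0.968 times CDKN1A, and in Akt1/2 DKO CDKN1B stood at 2.29 times CDKN1A. The read ratio of CDKN1B to CDKN1A was thus 2.38 times higher in Akt1/2 DKO (95% exact interval 2.13 to 2.65), whatever the scaling. The authors state that quantitative PCR found p21 and p27 not significantly changed, without showing the data. The cells compared are not spelled out there.

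The summed FPKM of the Cip/Kip genes was 117 in control and 128 in Akt1/2 DKO, with a different makeup. CDKN1A made up 49.9% of it in control and 30.2% in Akt1/2 DKO, and CDKN1B 48.3% and 69.3%. The third member of the family, CDKN1C, which encodes p57, had 35 and 11 reads, a log2 fold change of -1.82 (95% interval -2.94 to -0.81), at 2.17 and 0.56 FPKM. The read ratio of CCND1 to CDKN1B was nearly the same in both libraries, with 0.989 times the control value in Akt1/2 DKO (95% exact interval 0.926 to 1.06). The cyclin and this inhibitor therefore differed from control by like factors.

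For comparison with CDK6, the window from 250 to 51 bases before the CDKN1A start at 36678714 is shown, chr6:36678464-36678663 on the plus strand, with GGGCGG in capitals.
CDKN1A: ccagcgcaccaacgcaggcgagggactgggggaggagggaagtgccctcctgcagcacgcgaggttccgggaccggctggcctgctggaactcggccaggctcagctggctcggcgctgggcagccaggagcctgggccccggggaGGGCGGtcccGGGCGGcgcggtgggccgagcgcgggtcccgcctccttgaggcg
This window is 77.0% G and C and holds 21 CG dinucleotides and 2 matches to GGGCGG. The windows of genes within 1.5-fold ranged from 42.0% to 76.5% G and C, both values from windows of CDKN2C. Of the other genes past 1.5-fold, the window of CDKN1B was at 70.0% and that of RB1, before a start inside the gene, at 33.0%. The inner window of CDK6, at 65.0%, also lay within that range. Of the 14 windows, 7 held GGGCGG on either strand, letters found in 35.0% of all windows. Any part of these letters in the differences was not tested.

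The INK4 inhibitors were close to control or slightly above it. CDKN2A (ENSG00000147889, chromosome 9 from 21967753 to 21995301) had 727 reads in control and 901 in Akt1/2 DKO, a log2 fold change of 0.16 (95% interval 0.02 to 0.30). The gene encodes both p16INK4a and p14ARF from shared exons, and counts per gene do not separate them. CDKN2C, which encodes p18, had 580 and 818 reads, a log2 fold change of 0.35 (95% interval 0.19 to 0.50). The other INK4 genes leaned the same way, with CDKN2D, encoding p19, at 285 and 467 reads (0.56) and CDKN2B, encoding p15, at 23 and 42 (0.72). The interval of CDKN2B, -0.05 to 1.52, included no change. Over all 4 INK4 genes the median log2 fold change was 0.46. Of the 4, 1 passed 1.5-fold, CDKN2B, a share of 25.0% where that of all genes tested was 30.9%.

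CDKN2A, CDKN2B and MTAP are adjacent on chromosome 9, and MTAP, with 401 and 718 reads, was at 0.69. The median over the 20 nearest expressed genes of CDKN2A was 0.23, against 0.02 for the chromosome, and over the nearest 10 it was 0.51. Around CDKN1B, the corresponding median was 0.25 against 0.04 for chromosome 12, and its nearest expressed neighbours were CREBL2 at -0.01 and APOLD1 at 1.45. Around CCND1, on chromosome 11, it was -0.07, with MYEOV at -2.71 on one side and ORAOV1 at -0.06 on the other. The medians around CCND2, CCND3, CDK4, CDKN1A and CDKN2C lay between -0.06 and 0.05, and of the nearest genes there TSPAN9 (-3.25) and TIGAR (-0.61), beside CCND2, lay past 1.5-fold.

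RB1 (ENSG00000139687, chromosome 13 from 48303726 to 48599436), the substrate on which these kinases and inhibitors converge, had 366 reads in control and 635 in Akt1/2 DKO. It was 1.56-fold higher (95% interval 1.37 to 1.78), with FPKM of 7.53 and 12.2. Genes on the opposite strand within it had few reads, 0 in both libraries for LPAR6 and 24 and 38 for RCBTB2. Its nearest expressed neighbours were ITM2B at -0.63 and RCBTB2 at 0.51, and the median around it was 0.05. Of the other pocket proteins, RBL1, encoding p107, had 211 and 319 reads, a log2 fold change of 0.45 (95% interval 0.19 to 0.71). RBL2, encoding p130, which holds E2F genes silent in resting cells, had 1372 and 812 reads, a log2 fold change of -0.91 (95% interval -1.03 to -0.78). The 3 pocket proteins therefore did not share a direction.

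Most other genes of the G1/S pathway lay within 1.5-fold of control. Of 51 further genes in the lists, 50 had enough reads, and 8 of these (16.0%) lay past 1.5-fold, 4 above control and 4 below it, against 30.9% of all genes tested and 23.2% of those with at least 100 reads. With total count or upper quartile scaling 7 were higher and 4 lower, and with FPKM 7 were higher and 5 lower. Their median log2 fold change was 0.11. The genes annotated to the KEGG cell cycle pathway in the deposited table gave a like share, with 23 of 120 past 1.5-fold (19.2%), 12 higher and 11 lower. That set includes CDK6, and genes already counted above were not taken out of it, so it is not a separate count.

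Cyclin E and CDK2, which act after the D cyclins, stayed near control. CDK2 had 2226 and 3042 reads (log2 fold change 0.30), CCNE1 168 and 155 (-0.27), CCNE2 323 and 428 (0.26) and CCNA2 1772 and 2144 (0.13). CDC25A, the phosphatase that activates CDK2, was at -0.27. Of the CDK-activating kinase, CDK7 was at -0.22 and MNAT1 at 0.10, while its cyclin CCNH had 1018 and 374 reads, a log2 fold change of -1.59 (95% interval -1.77 to -1.42). CCNH was the only one of the 8 genes of this list past 1.5-fold, a share of 12.5% where that of all genes tested was 30.9%.

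Among the E2F factors and their DP partners, 3 of 10 passed 1.5-fold, a share of 30.0% that is close to the 30.9% of all genes tested. E2F2, an activator, was higher, with 827 and 1764 reads (0.94, 95% interval 0.82 to 1.06). E2F7, a repressor, was also higher, with 394 and 683 reads (0.64, 95% interval 0.46 to 0.83). TFDP2, a DP partner, had 830 and 391 reads, a log2 fold change of -1.23. It lies on chromosome 3, as do CDC25A at -0.27 and MCM2, the lowest of the E2F target genes below, at -0.25. The expressed genes of that chromosome had a median of -0.53. The part of the chromosome in these values was not tested. E2F1 was at 0.54, just within 1.5-fold.

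Of 16 E2F target genes of DNA replication, 1 passed 1.5-fold, CDT1, which loads the MCM helicase, with 857 and 1784 reads (0.91). This was 6.25% of the list, against 30.9% of all genes tested and 23.2% of those with at least 100 reads. The other 15 lay between -0.25 and 0.55, and the median of the list was 0.22. None of the 11 tested genes for p27 and cyclin turnover passed, with values from -0.29 to 0.28. SKP2, the subunit that marks p27 for destruction, was among them at -0.05. None of the 8 proliferation markers passed either, and they ranged from -0.42 to 0.40 around a median of -0.17.

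Some of the G1 genes are also known targets of FOXO factors. In a list of 9 such cell cycle genes, 8 had enough reads and 6 passed 1.5-fold, 4 higher and 2 lower, where the share over all genes tested was 30.9%. The list was chosen with earlier results known and holds CCND1, CDKN1A and CDKN1B, already counted above. Of those that FOXO is known to induce, CCNG2 (92 and 190 reads, 0.90), CDKN1B and CDKN2B were higher, and RBL2 and CDKN1A were lower. CDKN2D, with 285 and 467 reads, was at 0.56 (95% interval 0.35 to 0.78), just within 1.5-fold. GADD45A, with 215 and 216 reads, was at -0.14. CCND1, which FOXO is known to repress, was higher. The induced genes of the list thus did not share a direction.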

How the data were processed

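RNA sequencing had been done on 1 control and 1 Akt1/2 DKO library. Unnormalized estimated counts for each gene were deposited by the authors. The FPKM values in the same deposited table were also computed by the authors. The submitters' processing notes name fastp 0.20.0, TopHat, Cufflinks and edgeR with build GRCh38.p10. The authors' tables of their own comparison were not used. A gene list and some single genes are not reported here. GENCODE release 29 (GRCh38) gave positions for 19571 of 19607 identifiers.

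Before scaling, the counts were set to the nearest whole number, and a gene needed at least 10 reads summed over both libraries, and the library ratio, Akt1/2 DKO to control, was 1.11 by TMM in edgeR 4.0.16 (R 4.3.3). With 1 library per condition no test was run. Intervals at 95% are exact (Clopper-Pearson on the share of a gene's reads, or conditional for a ratio of genes, in scipy 1.17.1 under Python 3.11.15), and cover counting error only. The steps were tested on simulated data. The genes and lists were chosen with earlier results of these data known. Named genes were the 10 genes, AKT1, AKT2, their nearest expressed neighbours, all INK4, Cip/Kip, pocket protein and cyclin E list genes, and up to 4 genes of each list past 1.5-fold with at least 100 reads. E2F1, SKP2, GADD45A, MCM2, PDK4, PON1, the marker and overlapping genes, the KEGG count and the ratios within a library were chosen after values were seen. DESeq2 1.42.0 size factors, total count and upper quartile scaling, FPKM, other read filters, a prior count of 1 and stricter limits were alternatives.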

Additional observations from a re-analysis of the deposited data

How the results depend on the processing

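Of the 45 values of the 9 genes under 5 other scalings or units, none changed direction and 42 stayed within the interval of their gene. The other 3, all of CCND1, lay above its log2 interval of 0.58 to 0.62. They were 0.65 with total count scaling, 0.65 with upper quartile scaling and 0.64 with FPKM, so that narrow interval does not cover the choice of scaling. CDKN1A was within 1.5-fold with upper quartile scaling (1.49-fold lower), which left 4 of the 9 genes past it, all higher, against 4097 of 13318 genes. The fold of CDK6 ranged from 45.9 to 71.2. With at least 10 reads in each library CDK6 was not tested, and 4 of the 8 genes left lay past 1.5-fold, 3 higher and 1 lower. Under that filter 2967 of 11973 genes did so. A 2-fold limit left 1 of the 9 genes, 3 of the 50 G1/S list genes (all lower) and 2390 of all genes, since it asks for more. An interval wholly beyond 1.5-fold left 1 of the 9 genes, CDK6, and 2201 of all genes, so the calls of CCND1, CDKN1A, CDKN1B and RB1 rest on values close to the limit. The depth limits CDKN2B and CCND2, and the size of the CDK6 difference through its 7 control reads. Ratios within a library from FPKM in place of reads, chosen after seeing the data, stayed within their intervals. By reads without length scaling CCND1 made up 97.4% and 98.2% of the D cyclins. No paired analysis was possible because there is only 1 control and 1 Akt1/2 DKO library.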
